A study of Mus musculus with 9 samples.

Results

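The 38 genes of the 4 mouse Hox clusters and the long noncoding RNA gene Halr1 were followed in RNA-seq libraries of embryonic stem (ES) cells. The members were the rows of the count tables whose symbol is Hoxa, Hoxb, Hoxc or Hoxd followed by a number, plus Halr1, which gave 39 of 33233 genes: 11 Hoxa, 10 Hoxb, 9 Hoxc and 8 Hoxd genes and Halr1. Hoxd4 is not analysed here. All cells were of KH2, a mouse ES cell line, grown with the cytokine Lif on feeder cells that were removed before RNA extraction. There were 3 groups of 3 libraries: wild type, cells labelled as knockout for CBFA2T2, a nuclear co-repressor, and cells labelled as knockout for PRDM14, a DNA-binding factor of ES cells and of the early germline. The labels name no age, drug or time. Nothing in them tells clones from cultures among the replicates, so p-values measure only the spread between these libraries.

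Hox genes encode homeodomain transcription factors that give cells their position along the head-to-tail axis of the embryo. Within each cluster the genes lie in the order in which they act, from paralogue group 1 (hindbrain) to group 13 (tail, digits and genitalia). In ES cells the clusters are held silent by polycomb repressor complexes, and retinoic acid, Wnt signals and Cdx factors are known to switch them on during differentiation. Halr1 lies between Skap2 and the Hoxa cluster, and its RNA is known in mouse ES cells as a regulator of the neighbouring Hoxa genes.

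Some features of the libraries touch what follows. Total counts ranged from 10309196 to 20129490 per library. At 1 CPM (count per 1000000 counts) of the whole library, the unit of the threshold for expressed genes, a gene had 10.3 to 20.1 counts. The levels printed below use scaled library sizes instead. Prdm14 RNA was higher in the libraries labelled PRDM14 knockout (41.4, 42.2 and 63.5 CPM) than in wild type (18.4, 14.6 and 15.0 CPM), which goes against a loss of RNA, and these are called PRDM14-labelled libraries below. The CBFA2T2 knockout had Prdm14 at 55.0, 56.3 and 67.6 CPM, also above every wild-type library. A count for the whole gene does not tell which part of it was read. Cbfa2t2 was at 99.2, 44.9 and 84.8 CPM in the CBFA2T2 knockout and at 166, 160 and 177 CPM in wild type. PRDM14-labelled replicate 1 stood apart on chromosome 6, where the Hoxa cluster and Halr1 lie. Chromosome 6 held 6.70% of its counts against 4.70% to 4.98% in the other 8 libraries, and its 754 tested genes there were a median 1.35-fold above the mean of replicates 2 and 3. Values of Halr1, the Hoxa genes and their neighbours in comparisons with this group are therefore also given without this library.

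Halr1 was the most abundant member in wild-type cells and fell in both other groups. Halr1 (ENSMUSG00000085412) lies on chromosome 6, 52102949 to 52113684 on the plus strand (GRCm38). Its RNA was at 17.8, 15.8 and 14.7 CPM in the wild-type libraries. It was at 1.07, 0.575 and 0.699 CPM in the CBFA2T2 knockout, and at 5.13, 0.911 and 1.44 CPM in the PRDM14-labelled libraries. All 6 of these libraries lay below every wild-type library, and PRDM14-labelled replicate 1 lay above the other 5.

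Halr1 went from 16.1 ± 1.55 CPM in wild type to 0.783 ± 0.260 CPM in the CBFA2T2 knockout (SD, n = 3 each), a log2 fold change of -4.35 ± 0.56 SE (edgeR quasi-likelihood test, Benjamini-Hochberg adjusted p = 0.000235). In the PRDM14-labelled libraries it was at 2.49 ± 2.30 CPM (SD, n = 3) and fell by 2.68 ± 0.49 on the log2 scale (edgeR adjusted p = 0.00259). Without replicate 1 of that group the fall was larger, with a log2 fold change of -3.77 ± 0.29 (edgeR adjusted p = 5.41e-07). Halr1 in that replicate was 4.37-fold the mean of replicates 2 and 3, more than the median 1.35-fold of tested chromosome 6 genes. Ordered from the largest fall, Halr1 ranked 16 of 16532 tested genes in the CBFA2T2 knockout and 49 in the PRDM14-labelled libraries. In libraries of bulk cells, fewer cells with the RNA and less RNA per cell cannot be told apart.

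Between the CBFA2T2 knockout and the PRDM14-labelled libraries, Halr1 had a log2 difference of -1.68 (95% interval -3.02 to -0.33) that was not called (edgeR adjusted p = 0.216). It was called without PRDM14-labelled replicate 2 (-2.07, edgeR adjusted p = 0.0435), while without replicate 1, the library that stands apart on chromosome 6, it was -0.58 (edgeR adjusted p = 0.519).

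The promoter sequences of Halr1, Hoxd8 and Hoxd13 are shown because they set the RNA with the largest fall beside 2 Hox genes read in these cells. Each runs from 250 bases before to 50 bases after the transcript start in RefSeq (GRCm38.p6), on the gene's own strand, with CpG pairs in capitals.
Halr1, chr6:52102699-52102998, plus strand: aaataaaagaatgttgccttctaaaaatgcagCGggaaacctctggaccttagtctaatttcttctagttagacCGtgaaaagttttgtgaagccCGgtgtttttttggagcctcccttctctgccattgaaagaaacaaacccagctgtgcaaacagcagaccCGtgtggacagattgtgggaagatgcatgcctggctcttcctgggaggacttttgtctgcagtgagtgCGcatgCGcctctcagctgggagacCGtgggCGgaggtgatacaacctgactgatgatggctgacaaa
Hoxd8, chr2:74704365-74704664, plus strand: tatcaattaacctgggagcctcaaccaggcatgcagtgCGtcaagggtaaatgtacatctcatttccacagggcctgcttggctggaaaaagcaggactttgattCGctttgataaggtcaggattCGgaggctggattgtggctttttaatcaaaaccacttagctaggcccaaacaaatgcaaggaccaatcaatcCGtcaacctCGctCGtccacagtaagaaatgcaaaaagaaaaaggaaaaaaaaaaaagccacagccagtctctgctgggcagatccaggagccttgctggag
Hoxd13, chr2:74667975-74668274, plus strand: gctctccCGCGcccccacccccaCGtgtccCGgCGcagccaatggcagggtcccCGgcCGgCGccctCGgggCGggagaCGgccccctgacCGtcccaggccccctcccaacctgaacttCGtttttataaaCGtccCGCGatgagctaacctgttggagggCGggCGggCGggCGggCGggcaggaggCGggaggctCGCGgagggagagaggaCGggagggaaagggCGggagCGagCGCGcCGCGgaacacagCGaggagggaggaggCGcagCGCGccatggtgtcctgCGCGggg
The Halr1 window held 8 CpG pairs, the Hoxd8 window 6 and the Hoxd13 window 37. RefSeq promoters were matched for 22 of the 39 members, which gave 24 windows, since Hoxa10 and Hoxd11 each had a pair of starts. Hoxb9, Hoxb13 and Hoxc13 were among the members without a match, so the counts of CpG pairs and motifs do not cover them. The 23 Hox windows held 4 to 45 CpG pairs with a median of 15, against a median of 7 over all 32851 promoters of the table, and 20 of the 23 held more than that of Halr1.

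These 24 windows were searched on both strands for motifs of factors tied to the study or to Hox activation. The PRDM14 motif GGTCTCTAA was in 0 of 24 member windows and in 0.256% of all promoters. The retinoic acid element, AGGTCA repeated in the same direction with 5 bases between, was in 0 of 24 and in 0.00913% of all. The TCF/LEF motif CTTTGAT of Wnt signalling was in 1 of 24, that of Hoxd8, and in 3.73% of all. The E-box CAGGTG was in 0 of 24 and in 20.2% of all. A missing match says only that these letters are not in the window.

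**Figure D1:**
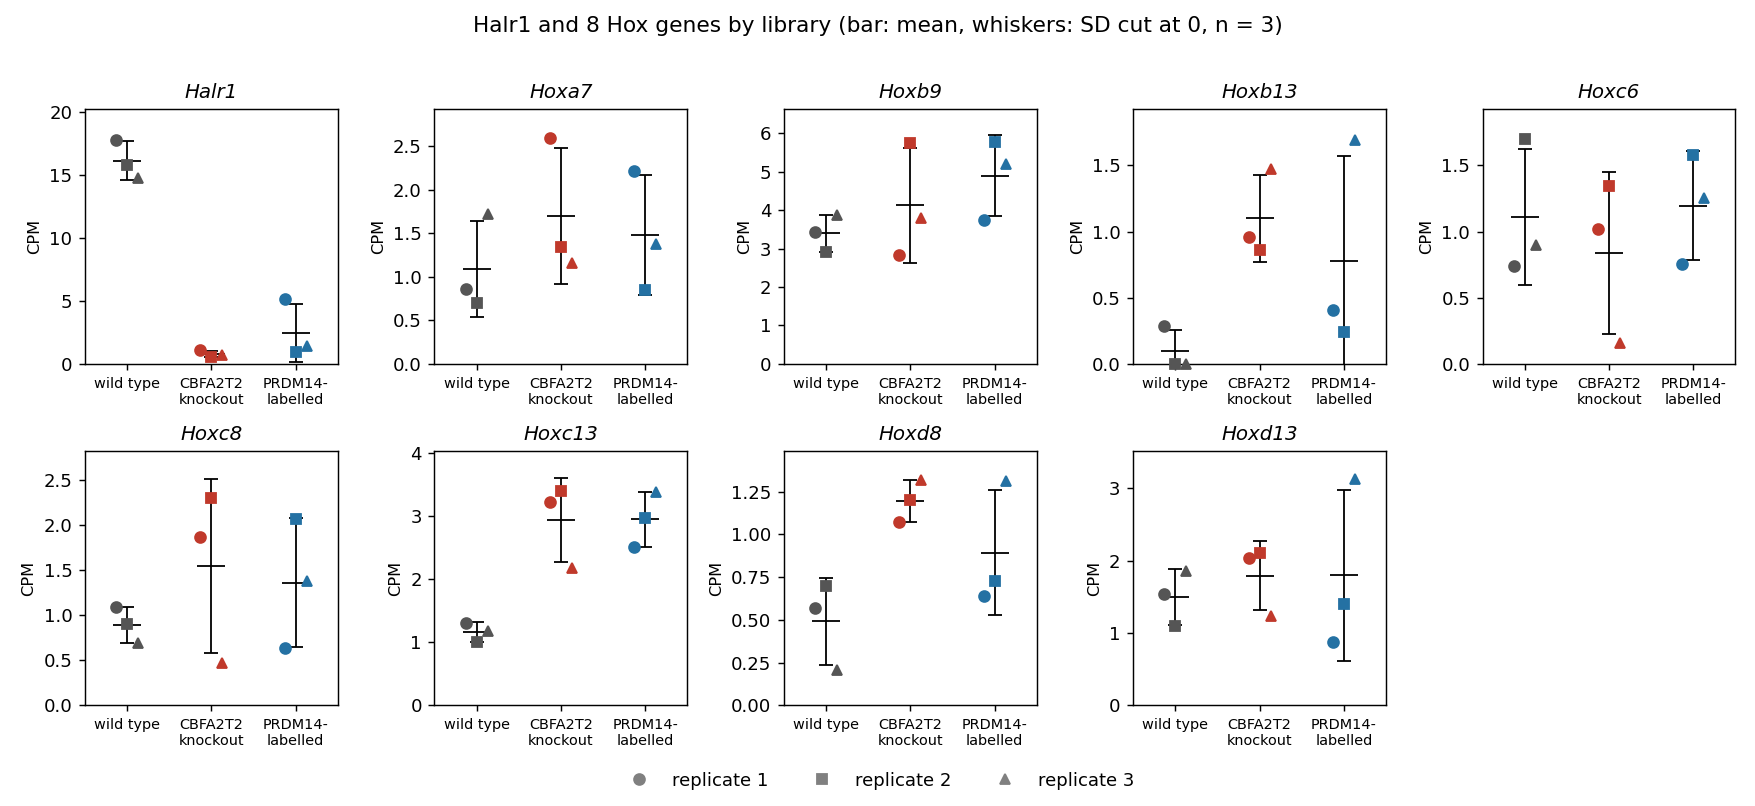
Level of Halr1 and 8 Hox genes in CPM (y axis, linear, a separate scale in each panel) in the 9 libraries (x axis, 3 groups). Points are libraries, with a symbol for each replicate number, bars are means and whiskers are SDs cut at 0 (n = 3). Halr1 lies at 14.7 to 17.8 CPM in wild type and at or under 5.13 CPM elsewhere, while Hoxc13 lies at 2.17 CPM or more in the other groups and at or under 1.31 CPM in wild type.

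Hox RNA was scarce in all 9 libraries. The 38 Hox genes together took 0.00204% to 0.00368% of the counts, and the highest level of any of them in any library was 5.77 CPM. Each of the 38 had a count in at least 1 library, and 22 had a count in all 9. Taking as expressed a gene with at least 1 CPM of the whole library in at least 3 libraries, 8 Hox genes and Halr1 were expressed, 9 members in all. That share was below the 46.8% of all genes (15556 of 33233) that met the same threshold. Every cluster had at least 1, among them Hoxa7, Hoxb9, Hoxc6, Hoxc8, Hoxc13, Hoxd8 and Hoxd13.

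These named genes belong to paralogue groups 6, 7, 8, 9 and 13. In CPM per kilobase of exon, which allows levels of different genes to be compared, Halr1 stood highest in wild type at 16.4. Hoxb9, which patterns the thorax, was at 1.32. Hoxd13, a gene of digits and genitalia, was at 0.605 and Hoxc13, a gene of hair and nails, at 0.472.

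The filter on low counts kept Halr1 and 15 Hox genes (among them Hoxa3, Hoxa7, Hoxb4, Hoxb7, Hoxb9, Hoxb13, Hoxc4, Hoxc6, Hoxc8, Hoxc10, Hoxc13, Hoxd8, Hoxd9 and Hoxd13), and it kept 49.7% of all genes. The other 23 Hox genes had between 15 and 64 counts summed over the 9 libraries, with a median of 23, and none passed 1.30 CPM in any library. At this depth a level under 0.144 to 0.300 CPM (3 counts, depending on the library) cannot be told from 0. Some of these genes had groups of libraries that did not overlap in CPM. Against wild type these were Hoxa4 and Hoxa10 in the CBFA2T2 knockout and Hoxb5 in the PRDM14-labelled libraries. Of all tested genes, which passed the filter and so leave these genes out, 53.7% and 45.1% did not overlap in these comparisons. The share among genes that failed the filter was not computed. Hoxb5, of the neck and upper thorax, had 7, 7 and 1 counts in wild type and 1, 0 and 0 in the PRDM14-labelled libraries. Hoxa4, also of the neck, had 0, 2 and 0 counts in the CBFA2T2 knockout, against 5, 2 and 3 in wild type. Hoxa10 had 6, 8 and 3 counts in the CBFA2T2 knockout, against 11, 6 and 7 in wild type. Hoxa4 and Hoxa10 separated only after scaling to library size. Without the filter none of these differences was called (edgeR adjusted p = 0.062 for Hoxb5, 0.185 for Hoxa4 and 0.489 for Hoxa10).

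**Figure D2:**
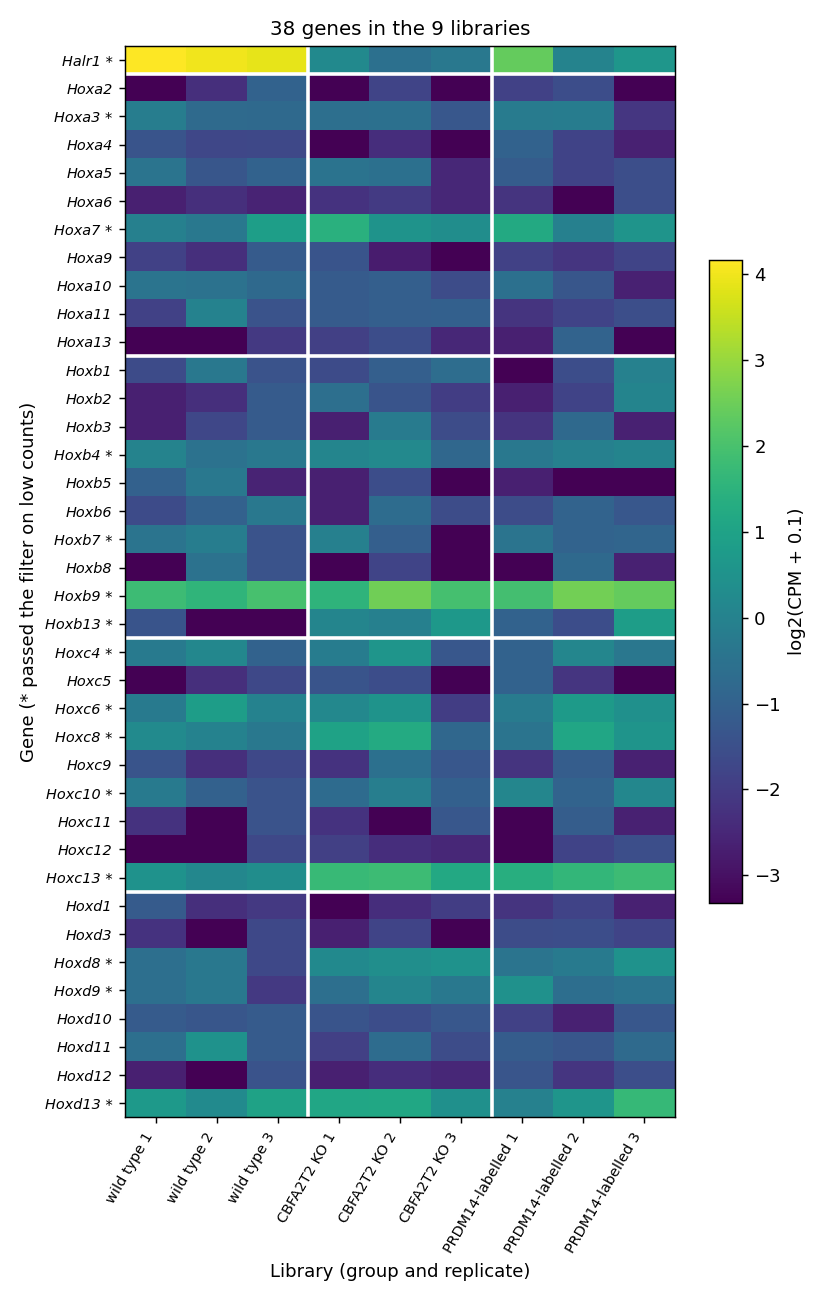
Heat map of 38 of the 39 genes (rows, by cluster and paralogue group, with a star on those that passed the filter on low counts) in the 9 libraries (columns). Colour is log2 of CPM plus 0.1. Most Hox rows stay dark in every library, with Hoxb9 and Hoxc13 among the brighter ones, and the Halr1 row is bright in the 3 wild-type libraries.

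In the CBFA2T2 knockout, Hoxc13 and Hoxb13 rose and Halr1 fell, while the other 13 tested members were not called. That made 3 of 16 tested members called (18.8%), against 38.5% of all 16532 tested genes: 2 members were higher (18.9% of all genes) and 1 was lower (19.6%). At an unadjusted p under 0.05 there were 5, against 47.6% of all genes. Non-overlapping libraries were found for 4 of the 16, against 53.7% of all tested genes. The median log2 fold change was 0.29 over the 16 members and 0.007 over all tested genes. The PRDM14-labelled libraries gave 2 calls among the 16 (12.5%), Hoxc13 higher and Halr1 lower, against 29.9% of all tested genes. The shares of all genes called higher and lower there were 14.6% and 15.3%. At an unadjusted p under 0.05 there were 4 (40.9% of all genes), the libraries did not overlap for 3 of 16 (45.1% of all genes), and the median was 0.47 over the members and 0.021 over all genes. In both comparisons the called share of members was below that of all genes. No Hox gene passed 5.77 CPM in any library, where few counts make a call harder. Shares were not compared with genes of a like level. Both comparisons use the same wild-type libraries.

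Hoxc13 (ENSMUSG00000001655, chromosome 15, 102921103 to 102928814, plus strand), a group 13 gene needed for hair and nails, rose in both groups. It was at 1.31, 0.999 and 1.17 CPM in wild type, at 3.22, 3.40 and 2.17 CPM in the CBFA2T2 knockout, and at 2.51, 2.98 and 3.38 CPM in the PRDM14-labelled libraries. The 3 wild-type libraries lay below the other 6. The means were 1.16 ± 0.158 CPM in wild type, 2.93 ± 0.664 in the CBFA2T2 knockout and 2.95 ± 0.436 in the PRDM14-labelled libraries (SD, n = 3 each). The log2 fold change was 1.32 ± 0.31 in the CBFA2T2 knockout (edgeR adjusted p = 0.00386) and 1.32 ± 0.31 in the PRDM14-labelled libraries (edgeR adjusted p = 0.00535). Hoxc13 was called in both comparisons under all 13 alternatives tried for each.

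Hoxb13 (ENSMUSG00000049604, chromosome 11, 96194316 to 96197447, plus strand), a gene of the tail bud and later of the prostate, was close to the detection limit in wild type. It was at 0.286, 0 and 0 CPM in wild type, at 0.961, 0.863 and 1.48 CPM in the CBFA2T2 knockout, and at 0.408, 0.243 and 1.69 CPM in the PRDM14-labelled libraries. The CBFA2T2 knockout libraries lay above all wild-type libraries, while the lowest PRDM14-labelled library lay just below the highest wild-type one. Hoxb13 rose in the CBFA2T2 knockout (log2 fold change 3.15 ± 0.96, edgeR adjusted p = 0.0196), and this call was lost without CBFA2T2 knockout replicate 3 (adjusted p = 0.053), wild-type replicate 2 (0.0639) or wild-type replicate 3 (0.0736). The fitted value reached 7.10 without wild-type replicate 1, which leaves wild-type libraries at 0 and is no measure of size. In the PRDM14-labelled libraries the log2 fold change was 2.67 ± 0.99 and was not called (edgeR adjusted p = 0.0576), although 6 of the 11 alternatives that gave a value called it.

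Hoxd8 (chromosome 2, 74704615 to 74707933, plus strand), a gene of the trunk, was at 0.571, 0.700 and 0.207 CPM in wild type. It was at 1.07, 1.20 and 1.32 CPM in the CBFA2T2 knockout and at 0.641, 0.729 and 1.31 CPM in the PRDM14-labelled libraries. The CBFA2T2 knockout libraries did not overlap wild type, and the PRDM14-labelled ones did. The log2 fold change of 1.30 ± 0.50 in the CBFA2T2 knockout was not called (edgeR adjusted p = 0.0561), but limma-voom (adjusted p = 0.0453) and a fit on those groups alone (0.0436) called it. The PRDM14-labelled libraries gave 0.88 ± 0.52 (edgeR adjusted p = 0.22).

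Hoxb9, Hoxa7, Hoxc6, Hoxc8 and Hoxd13 had overlapping libraries in every comparison. Hoxb9 (chromosome 11, 96271457 to 96276595) was at 3.43, 2.90 and 3.87 CPM in wild type, at 2.83, 5.75 and 3.80 CPM in the CBFA2T2 knockout and at 3.73, 5.77 and 5.19 CPM in the PRDM14-labelled libraries. Its highest libraries were replicate 2 of both of the latter groups. The log2 fold change was 0.28 ± 0.29 in the CBFA2T2 knockout and 0.52 ± 0.29 in the PRDM14-labelled libraries (edgeR adjusted p = 0.472 and 0.194).

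Hoxa7 (chromosome 6, 52214491 to 52221854), a thoracic gene, was at 0.857, 0.700 and 1.73 CPM in wild type, at 2.60, 1.34 and 1.16 CPM in the CBFA2T2 knockout and at 2.21, 0.850 and 1.38 CPM in the PRDM14-labelled libraries. Replicate 1 was highest in both of the latter groups. The log2 fold change was 0.62 ± 0.48 in the CBFA2T2 knockout and 0.42 ± 0.49 in the PRDM14-labelled libraries, and 0.003 in the latter without replicate 1 (edgeR adjusted p = 0.333, 0.554 and 0.997).

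Hoxc6 and Hoxc8 (chromosome 15, 102998257 to 103011881 and 102990607 to 102994111) act at the level of the forelimb and upper thorax, where they pattern motor neurons. Hoxc8 was at 1.08, 0.899 and 0.690 CPM in wild type, at 1.86, 2.30 and 0.466 CPM in the CBFA2T2 knockout and at 0.641, 2.06 and 1.38 CPM in the PRDM14-labelled libraries. Hoxc6 was at 0.743, 1.70 and 0.898 CPM, at 1.02, 1.34 and 0.155 CPM, and at 0.758, 1.58 and 1.25 CPM in the same order. CBFA2T2 knockout replicate 3 was the lowest of the 9 libraries for both genes. The log2 fold changes of Hoxc8 were 0.82 ± 0.55 in the CBFA2T2 knockout and 0.59 ± 0.56 in the PRDM14-labelled libraries (edgeR adjusted p = 0.263 and 0.459). Those of Hoxc6 were -0.29 ± 0.58 and 0.15 ± 0.57 (edgeR adjusted p = 0.728 and 0.869).

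Hoxd13 (chromosome 2, 74668310 to 74671599) was at 1.54, 1.10 and 1.86 CPM in wild type, at 2.03, 2.11 and 1.24 CPM in the CBFA2T2 knockout and at 0.874, 1.40 and 3.13 CPM in the PRDM14-labelled libraries. The last group held both the lowest and the highest of the 9 libraries. Its log2 fold change was 0.25 ± 0.45 in the CBFA2T2 knockout and 0.23 ± 0.45 in the PRDM14-labelled libraries (edgeR adjusted p = 0.687 and 0.73).

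Set against each other, the CBFA2T2 knockout and the PRDM14-labelled libraries differed in 0 of 16 tested members, against 0.853% of all tested genes, 0.339% higher and 0.514% lower (edgeR). At an unadjusted p under 0.05 there was 1, Halr1, against 15.1% of all genes, and both DESeq2 and limma-voom called 0. The median log2 difference was -0.021 over the members and -0.003 over all genes. For Hoxc13 the difference was 0.0032 ± 0.27, with a 95% interval of -0.59 to 0.59. For Hoxb13 it was 0.48, with an interval of -1.05 to 2.0. Intervals this wide do not show that the groups are alike.

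The summed level of each cluster was compared as a description, with no test. The Hoxa cluster (chromosome 6) summed to 6.51, 5.50 and 7.39 CPM in wild type, to 10, 9.49 and 4.89 CPM in the CBFA2T2 knockout and to 10.4, 7.41 and 6.57 CPM in the PRDM14-labelled libraries. CBFA2T2 knockout replicate 3 was the lowest of all. The log2 ratio of means to wild type was 0.33 in both groups. In the CBFA2T2 knockout it was 0.15, 0.20 and 0.59 without replicate 1, 2 and 3. Without PRDM14-labelled replicate 1, whose Hoxa sum was 1.49-fold the mean of replicates 2 and 3, the ratio of that group was 0.11.

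The Hoxb cluster (chromosome 11) summed to 6.23, 6.995 and 6.84 CPM in wild type, to 6.56, 10.5 and 6.91 CPM in the CBFA2T2 knockout and to 5.94, 9.11 and 10.5 CPM in the PRDM14-labelled libraries. Its log2 ratios to wild type were 0.25 and 0.35, and the groups overlapped in both comparisons. The first ratio was 0.01 without CBFA2T2 knockout replicate 2, and the second was 0.17 without PRDM14-labelled replicate 3 and 0.55 without replicate 1. Hoxb9 held 54.1% of the Hoxb counts, and without it the log2 ratios were 0.225 and 0.14. The Hoxc cluster (chromosome 15) had the largest ratios of the 4 clusters, 0.62 and 0.66. It summed to 5.03, 5.20 and 4.35 CPM in wild type, to 8.08, 10.2 and 4.19 CPM in the CBFA2T2 knockout and to 5.83, 9.05 and 8.07 CPM in the PRDM14-labelled libraries. The PRDM14-labelled libraries lay above wild type, and CBFA2T2 knockout replicate 3 lay below it. Hoxc13 held 35.6% of the Hoxc counts, and without it the log2 ratios were 0.30 and 0.35. Without CBFA2T2 knockout replicate 2 the Hoxc ratio of that group was 0.34. The Hoxd cluster (chromosome 2) summed to 4.11, 4.20 and 3.52 CPM in wild type, to 4.24, 5.42 and 4.04 CPM in the CBFA2T2 knockout and to 3.96, 3.58 and 6.38 CPM in the PRDM14-labelled libraries. Its log2 ratios were 0.21 and 0.24, and the groups overlapped. The first was 0.069 without CBFA2T2 knockout replicate 2 and 0.14 without wild-type replicate 3, and the second turned to -0.064 without PRDM14-labelled replicate 3 and was 0.39 without replicate 2. Hoxd13 held 39.3% of the Hoxd counts.

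**Figure D3:**
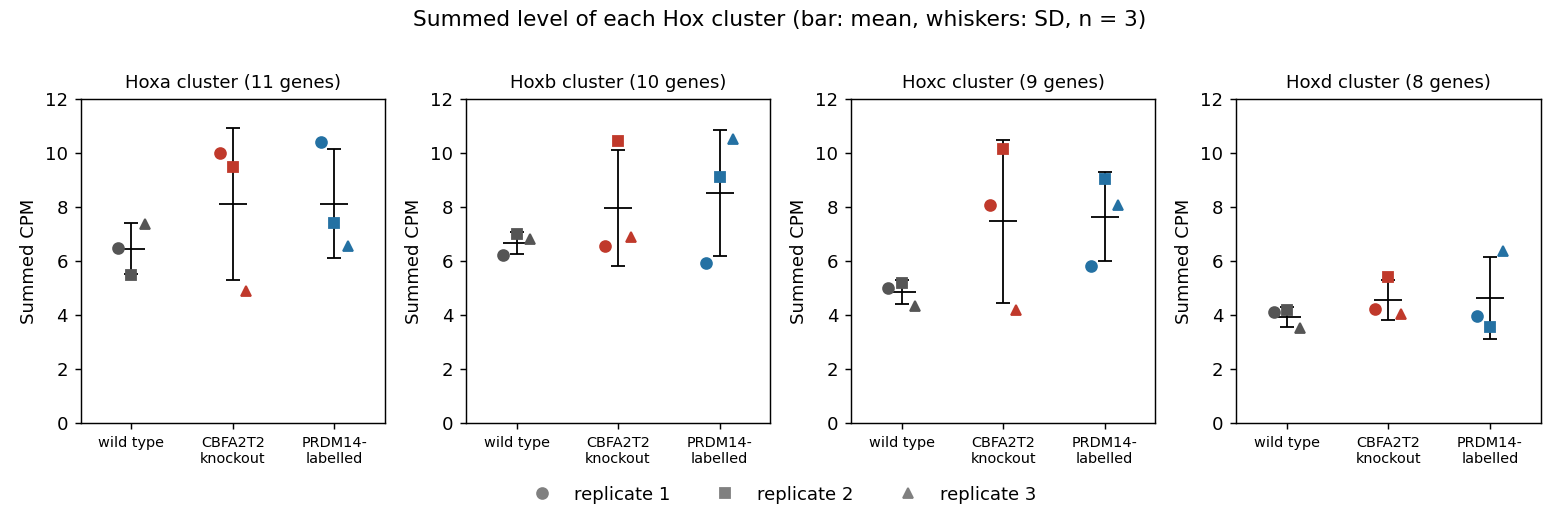
Summed CPM (y axis, linear) of the genes of each Hox cluster in the 9 libraries (x axis, 3 groups). Points are libraries, with a symbol for each replicate number, bars are means and whiskers are SDs (n = 3). The wild-type sums vary little, the CBFA2T2 knockout sums of Hoxa and Hoxc reach from 4.89 to 10 CPM and from 4.19 to 10.2 CPM, and all 3 PRDM14-labelled Hoxc sums lie above wild type.

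Over all 38 Hox genes the wild-type libraries had sums of 21.9, 21.9 and 22.1 CPM (mean 22.0 ± 0.125 SD, n = 3). These rest on 383, 219 and 320 counts, for which counting error alone is larger than this SD, so it understates their spread. The CBFA2T2 knockout libraries spread from 20.02 to 35.5 CPM (28.1 ± 7.78) and the PRDM14-labelled ones from 26.2 to 31.5 CPM (29.0 ± 2.68). By position along the clusters, the 16 genes of groups 9 to 13 summed to 9.39 to 10.2 CPM in wild type, 11.8 to 16.5 CPM in the CBFA2T2 knockout and 11.7 to 17.0 CPM in the PRDM14-labelled libraries. Neither of the latter groups overlapped wild type (log2 ratios of means 0.44 and 0.51). The 8 genes of groups 1 to 3 had log2 ratios of 0.47 and 0.57, with no overlap in the PRDM14-labelled libraries. The 14 genes of groups 4 to 8 had ratios of 0.17 and 0.12 and overlapped in both. The member with the most counts held 67.8% of the counts of groups 1 to 3. Hoxa7 held 17.7% of those of groups 4 to 8, and Hoxb9 33.1% of those of groups 9 to 13. The sums by position were not computed without these members, so their ratios do not show a change of many genes. Leaving out single libraries of these sums was added after the data had been seen. Without PRDM14-labelled replicate 1, the ratios of that group were 0.53 for groups 1 to 3, 0.18 for groups 4 to 8, 0.63 for groups 9 to 13 and 0.47 for all Hox genes, against 0.40 for all Hox genes with it. Without CBFA2T2 knockout replicate 2, those of the CBFA2T2 knockout were 0.24, -0.061, 0.27 and 0.155, against 0.36 for all Hox genes with it. For groups 4 to 8, leaving out each library in turn gave -0.061 to 0.49 in the CBFA2T2 knockout and 0.051 to 0.24 in the PRDM14-labelled libraries.

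The neighbourhood of Halr1 was examined within 700 kb of its start, also as a check on chromosome 6. Skap2, which encodes an adaptor protein and lies on the side away from the Hoxa cluster, fell by 0.67 ± 0.16 on the log2 scale in the CBFA2T2 knockout (edgeR adjusted p = 0.00551). In the PRDM14-labelled libraries it was not called (-0.12 ± 0.16, adjusted p = 0.607), but it fell without replicate 1 (-0.38 ± 0.12, adjusted p = 0.0258). Tax1bp1, an autophagy adaptor on the far side of the cluster, fell in both groups (-0.34 ± 0.10 and -0.31 ± 0.10, edgeR adjusted p = 0.0199 and 0.0359). The first call was lost without CBFA2T2 knockout replicate 2 or 3 or any 1 wild-type library (edgeR adjusted p up to 0.0724). The second was lost without PRDM14-labelled replicate 2 or 3 or any 1 wild-type library and in a fit on those groups alone (edgeR adjusted p up to 0.135), and it was -0.46 without replicate 1 (edgeR adjusted p = 0.000762). Some genes of the window rose. Jazf1, which encodes a zinc finger protein and lies past Tax1bp1, rose by 1.36 ± 0.42 in the CBFA2T2 knockout (edgeR adjusted p = 0.0201). Its PRDM14-labelled value of 0.63 ± 0.43 was not called (edgeR adjusted p = 0.297, and 0.369 without replicate 1). The gene model Gm8129 rose by 0.31 ± 0.11 in the PRDM14-labelled libraries (edgeR adjusted p = 0.04, and 0.37 ± 0.11 with an adjusted p of 0.023 without replicate 1), while its CBFA2T2 knockout value of 0.22 was not called (edgeR adjusted p = 0.122). Snx10, Hibadh, Evx1 and the antisense RNA Hotairm1 were not called in either comparison, with or without replicate 1. Among the 16 tested genes shown for this window, the log2 fold change of Halr1 was the largest in size in both comparisons.

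**Figure D4:**
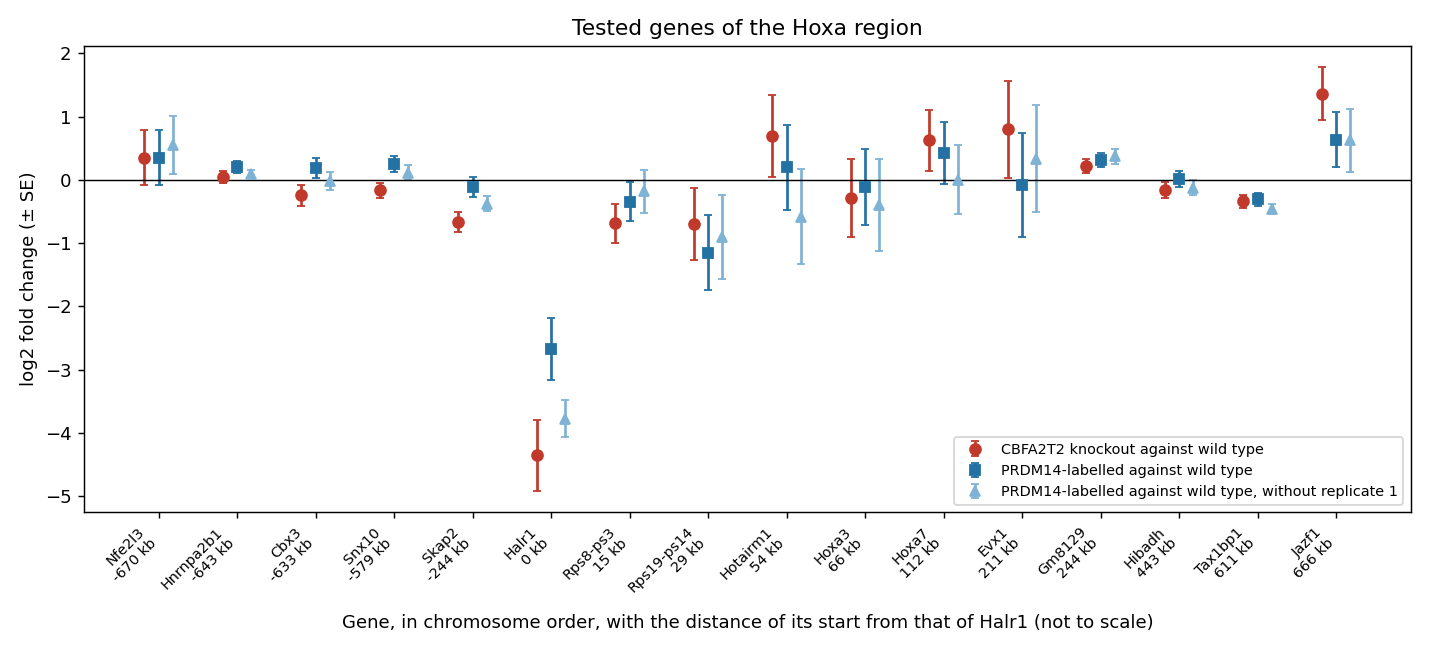
Log2 fold change against wild type (y axis, ± SE from the edgeR fit) of 16 tested genes within 700 kb of the start of Halr1 (x axis, in chromosome order, labelled with the distance from Halr1 and not to scale). Circles are the CBFA2T2 knockout, squares the PRDM14-labelled libraries and triangles the same without replicate 1. Halr1 lies at -4.35, -2.68 and -3.77, and Hoxa7 at 0.62, 0.42 and 0.003.

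The other noncoding RNAs of the clusters had few counts. Hotair, the antisense RNA of the Hoxc cluster, had 1 count over all 9 libraries and Hottip, at the end of the Hoxa cluster, had 2. The 5 microRNA genes of the clusters, of the mir-10 and mir-196 families, had 0 counts, in libraries of polyadenylated RNA. Of 32 listed neighbours and noncoding RNAs in the files, 16 were tested. In the CBFA2T2 knockout 3 were higher and 5 lower, against 18.9% and 19.6% of all tested genes, and in the PRDM14-labelled libraries 3 were higher and 4 lower, against 14.6% and 15.3%. Beside the Hoxb cluster, Calcoco2, an autophagy receptor gene, rose (log2 fold change 1.38 ± 0.16 and 1.34 ± 0.16, edgeR adjusted p = 2.34e-05 and 4.69e-05) and so did Ttll6, a tubulin-modifying enzyme (1.11 ± 0.22 and 1.14 ± 0.22, edgeR adjusted p = 0.0013 and 0.00154). Cbx1, a heterochromatin protein gene, lies farther off, past Skap1 and Snx11 on the other side of the Hoxb cluster. Cbx1 fell (-0.76 ± 0.08 and -0.58 ± 0.08, edgeR adjusted p = 1.61e-05 and 0.000197). Snx11 fell as well (-0.83 ± 0.14 and -0.87 ± 0.14, edgeR adjusted p = 0.00038 and 0.000417). Neighbours of Hoxb were called in both directions while its tested members other than Hoxb13 were not called.

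Genes listed as acting with or on the Hox clusters were counted, to be read against all tested genes. Of all tested genes, 18.9% rose and 19.6% fell in the CBFA2T2 knockout, and 14.6% rose and 15.3% fell in the PRDM14-labelled libraries. The cofactors of the Pbx, Meis and Pknox families bind DNA together with Hox proteins. Of 9 tested, 4 rose and 0 fell in the CBFA2T2 knockout, and 2 rose and 0 fell in the PRDM14-labelled libraries, with medians of 0.28 and 0.21 (log2). Meis3 went from 1.63 to 6.95 CPM in the CBFA2T2 knockout (log2 fold change 2.06 ± 0.30, edgeR adjusted p = 0.000143) and to 4.16 CPM in the PRDM14-labelled libraries (1.32 ± 0.31, edgeR adjusted p = 0.00552). Pknox2 rose in both (1.87 ± 0.20 and 0.85 ± 0.20, edgeR adjusted p = 1.23e-05 and 0.00675). It also differed between the CBFA2T2 knockout and the PRDM14-labelled libraries (1.02 ± 0.19, edgeR adjusted p = 0.0276), a call lost without CBFA2T2 knockout replicate 1 or 2 or PRDM14-labelled replicate 3 and in a fit on those groups alone (edgeR adjusted p up to 0.155). Meis2 rose by 1.14 on the log2 scale in the CBFA2T2 knockout, a call lost without wild-type replicate 1 or 2 (edgeR adjusted p up to 0.0589), with values of 1.02 to 1.39 over all alternatives.

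The 17 genes listed as upstream activators include Gbx2 and Zscan10, also factors of ES cells, whose part in Hox activation was not examined. In the CBFA2T2 knockout 7 of the 17 rose and 4 fell (18.9% and 19.6% of all genes). In the PRDM14-labelled libraries 4 rose and 6 fell (14.6% and 15.3%). The medians were 0.004 and -0.22 in the same order. The Wnt ligand Wnt3 rose from 1.5 to 13.1 and 8.34 CPM (log2 fold change 3.09 ± 0.29 and 2.43 ± 0.30, edgeR adjusted p = 5.02e-06 and 5.72e-05). Cdx1, a caudal-type activator of Hox genes, rose from 4.53 to 13.7 CPM in the CBFA2T2 knockout (1.61 ± 0.235, edgeR adjusted p = 0.000147). In the PRDM14-labelled libraries Cdx1 was at 16.7 CPM (1.90 ± 0.23, edgeR adjusted p = 6.14e-05). T (Brachyury) also rose in both groups (3.82 ± 0.53 and 2.01 ± 0.56, edgeR adjusted p = 0.000124 and 0.0169). Gbx2, a factor of the hindbrain border and of naive ES cells, fell from 58.6 to 4.75 and 10.4 CPM (-3.59 ± 0.30 and -2.49 ± 0.28, edgeR adjusted p = 1.6e-05 and 0.00015). Zscan10, a factor of ES cells, fell as well (-0.83 and -0.82).

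Of 15 tested genes of the retinoic acid response, 3 rose and 7 fell in the CBFA2T2 knockout (18.9% and 19.6% of all genes), and 3 rose and 5 fell in the PRDM14-labelled libraries (14.6% and 15.3%), with medians of -0.38 and -0.50. The receptor gene Rarg fell from 284 to 81.0 and 85.8 CPM (log2 fold change -1.81 ± 0.08 and -1.72 ± 0.08, edgeR adjusted p = 2.04e-08 and 8.62e-08). Rxrg, a partner receptor, fell from 4.50 to 0.200 and 0.265 CPM, and Rara fell by 0.67 and 0.62 on the log2 scale. The retinoic acid binding protein gene Crabp2 rose in both groups (1.12 ± 0.20 and 1.43 ± 0.20, edgeR adjusted p = 0.00065 and 0.000145). Crabp1 fell in both (-0.93 ± 0.14 and -0.50 ± 0.14, edgeR adjusted p = 0.000171 and 0.0147).

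Of 31 tested polycomb repressor genes, 4 rose and 12 fell in the CBFA2T2 knockout (18.9% and 19.6% of all genes), and 6 rose and 13 fell in the PRDM14-labelled libraries (14.6% and 15.3%), with medians of -0.25 and -0.19. Jarid2, which guides the PRC2 complex, fell from 836 to 220 and 242 CPM (log2 fold change -1.92 ± 0.14 and -1.79 ± 0.14, edgeR adjusted p = 1.83e-06 and 4.98e-06). Phc1, a PRC1 subunit, fell from 1044 to 313 and 455 CPM (-1.74 ± 0.12 and -1.20 ± 0.12, edgeR adjusted p = 1.14e-06 and 2.03e-05). Phc1 lies on chromosome 6, and its PRDM14-labelled value was -1.36 to -1.085 over the alternatives, among them the fit without replicate 1. Kdm2b, which brings PRC1 to CpG-rich DNA, fell by 1.20 and 1.11 on the log2 scale. Eed, a core PRC2 subunit, fell by 0.81 and 0.55 in the same order (edgeR adjusted p = 7.9e-06 and 0.000228). Ezh1, a PRC2 enzyme, rose by 0.68 and 0.70 (edgeR adjusted p = 6.19e-05 and 7.45e-05). No link between these lists and the Hox levels was tested.

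Markers of other cell types were counted beside the Hox sums, against the same shares of all tested genes (18.9% higher and 19.6% lower in the CBFA2T2 knockout, 14.6% and 15.3% in the PRDM14-labelled libraries). Of 10 ES cell markers, 8 fell and 1 rose in the CBFA2T2 knockout, and 7 fell and 1 rose in the PRDM14-labelled libraries. Their summed level was 5257 to 5318 CPM in wild type, 2932 to 3526 CPM in the CBFA2T2 knockout and 3865 to 4601 CPM in the PRDM14-labelled libraries, with none at 0, so the libraries keep the markers of ES cells. Pou5f1 fell from 757 to 379 and 434 CPM. Of 19 tested fibroblast markers, genes that feeder cells would express, 6 rose and 0 fell in the CBFA2T2 knockout, and 4 rose and 0 fell in the PRDM14-labelled libraries. The other 13 and 15 were not called, and the medians over all 19 were 0.49 and 0.69 (log2). Some uncalled markers were below 0 in both groups, among them Dcn (-0.20 and -0.105) and Pdgfra (-0.40 and -0.14). The 20 markers in the files summed to 367 to 456 CPM in wild type, 699 to 1525 CPM in the CBFA2T2 knockout and 658 to 1416 CPM in the PRDM14-labelled libraries, with none at 0 in all libraries. Abundant genes weigh most in this sum, and Col1a1 alone had means of 98.8, 373.7 and 382.5 CPM in the same order. Acta2, a smooth muscle actin, rose by 2.40 ± 0.46 and 2.07 ± 0.45 on the log2 scale (edgeR adjusted p = 0.00648 and 0.015), and Col1a1, a fibroblast collagen, by 1.92 ± 0.43 and 1.95 ± 0.43 (edgeR adjusted p = 0.0132 and 0.016). In the PRDM14-labelled libraries both calls were lost without wild-type replicate 2 or 3 (adjusted p up to 0.058 for Acta2 and 0.0612 for Col1a1). The calls of Pdgfrb and Tbx15 there were also lost under some alternatives (edgeR adjusted p up to 0.0649 and 0.124). In the CBFA2T2 knockout that of Col5a1 was lost (edgeR adjusted p up to 0.0858), while those of Acta2, Col1a1 and Tbx15 held.

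The fibroblast and Hox sums moved together in part. CBFA2T2 knockout replicate 2 was highest in both, at 1525 and 35.5 CPM. Replicate 3 was the lowest of its group in both, at 699 and 20.02 CPM. That library lay above every wild-type library for fibroblast markers (367 to 456 CPM) and below every one for Hox RNA (21.9 to 22.1 CPM). In the PRDM14-labelled libraries, replicate 2 had the most fibroblast marker RNA (1416 CPM) and replicate 3 the most Hox RNA (31.5 CPM), while replicate 1 was the lowest of that group in both, at 658 and 26.2 CPM. Embryonic fibroblasts are known to express Hox genes, and the part of these cells in the Hox levels was not tested.

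**Figure D5:**
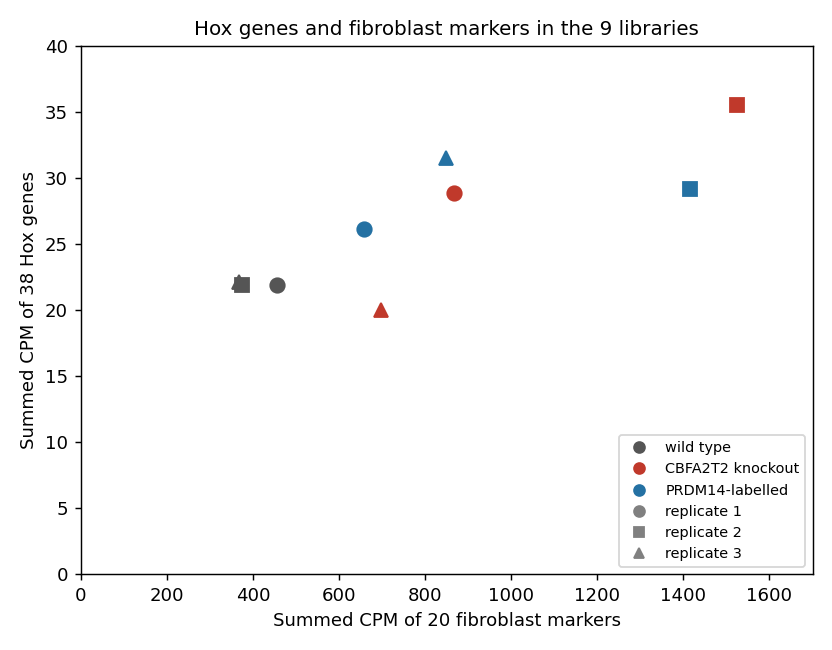
Summed CPM of the 38 Hox genes (y axis) against summed CPM of 20 fibroblast markers (x axis) in the 9 libraries, both linear. Colours are groups and symbols are replicate numbers. Wild-type libraries lie together at 367 to 456 CPM of fibroblast markers and 21.9 to 22.1 CPM of Hox RNA, and the other 6 lie at 658 CPM or more of fibroblast markers.

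Markers of tissues in which Hox genes are active did not move in a single direction. Of 5 tested neural progenitor markers, 3 rose and 2 fell in both groups. Egr2, a hindbrain segment gene, rose (log2 fold change 2.14 ± 0.14 and 1.94 ± 0.14, edgeR adjusted p = 3.57e-07 and 1.41e-06), while Pax6 fell (-3.02 ± 0.32 and -2.58 ± 0.31, edgeR adjusted p = 1.26e-05 and 5.28e-05). The 9 neural progenitor markers in the files summed to 95.7 to 103 CPM in wild type. They summed to 247 to 265 CPM in the CBFA2T2 knockout and to 148 to 226 CPM in the PRDM14-labelled libraries. Abundant genes weigh most in this sum, and the marker Nes alone was at 58.6 to 62.4 CPM in wild type. Nes was at 170.5 to 185.2 CPM in the CBFA2T2 knockout and at 86.8 to 153.8 CPM in the PRDM14-labelled libraries. The sum therefore does not show a rise of many markers. Of 5 tested posterior mesoderm markers, 1 rose and 2 fell in the CBFA2T2 knockout, and 0 rose and 1 fell in the PRDM14-labelled libraries. Tcf15, a gene of paraxial mesoderm that ES cells can also express, fell from 49.6 to 3.86 and 5.48 CPM (edgeR adjusted p = 4.2e-05 and 0.000125). Msgn1, a defining gene of presomitic mesoderm, was at 0 in all 9 libraries. The part of these cell types in the Hox levels was not tested.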

How the data were processed

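Polyadenylated RNA of 9 libraries (3 per group) was sequenced as strand-specific dUTP libraries, per the labels' protocols. The deposited tables hold counts for each Ensembl gene that the authors left unnormalized. Bowtie and mm9 are named in the submitters' processing notes, while gene positions in the files match GRCm38. The sources used here do not give the program that counted reads, whether it used strand, or the annotation release. A different strand setting would change the counts of genes with an antisense partner. Exons overlapped another gene on the other strand for 8 members and on the same strand for 3, Hoxc5, Hoxc10 and Hoxa9.

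The fit used edgeR 4.0.16 (R 4.3.3): filterByExpr (16532 genes kept), TMM scaling and a robust quasi-likelihood model of 3 groups over all 9 libraries, checked on simulated data. Tests were two-sided. A gene was called at an adjusted p under 0.05 (Benjamini-Hochberg over all genes tested). The SE is the absolute log2 fold change over the square root of F, and 95% intervals use the t quantile. CPM use kept library sizes times TMM factors. These intervals include the spread between libraries; the floor of 3 counts covers counting error only. The labels name no molecular identifiers. Group and replicate came from the labels.

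The members and lists were chosen with earlier results of these data known. Expressed members and Hoxb13 were named, and of each list up to 4 called genes by lowest adjusted p. Some values of list genes are also given outside this rule. Hoxb5, Hoxa4, Hoxa10 and the split by paralogue group were chosen after their values were seen. Alternatives were DESeq2 1.42.0 size factors and Wald test, limma 3.58.1 voom, no filter, a mean of at least 1 CPM, only the groups compared, the replicate number as a block, leaving out each library, and for sums leaving out the top member (Hoxb, Hoxc and Hoxd). Some single genes, and the Hoxa sum without its top member, are not reported here.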

Additional observations from a re-analysis of the deposited data

How the results depend on the processing

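The number of tested members called was 3 in the CBFA2T2 knockout and 2 in the PRDM14-labelled libraries, and 2 to 4 and 2 to 3 under the alternatives, with Halr1 and Hoxc13 called in each. Between the CBFA2T2 knockout and the PRDM14-labelled libraries it was 0, and 0 to 1 when each library was left out, the 1 being Halr1. Same-number correlations were -0.0065 to 0.10 with wild type, and replicate 2 did not correlate best with its own number there. Between the other groups they were 0.061, 0.30 and 0.13, and every sample correlated best with its own number. Whether replicates of those groups were paired was not tested. With the replicate block the counts were 3, 2 and 0, and the log2 difference of Hoxc13 between the CBFA2T2 knockout and the PRDM14-labelled libraries turned to -0.005.

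Over all tested members, 44 of 585 fold changes under an alternative changed sign, none of them called. Of those printed above, the ranges on leaving out each library were -0.045 to 0.51 for Hoxb9 and -0.78 to 0.14 for Hoxc6 in the CBFA2T2 knockout, -0.10 to 0.55 for Hoxc6 and -0.42 to 0.57 for Hoxd13 in the PRDM14-labelled libraries, and -0.12 to 0.17 for Hoxc13 between those groups. Expressed members numbered 9, but 20 at 0.5 CPM and 3 at 5 CPM. The alternatives were checked for 73 calls of genes outside the clusters, not all of those printed above. Of the 73, 61 held under every alternative run, 12 were lost under at least 1, and 0 changed direction. The causes were not tested. With 15 to 64 counts in 9 libraries, depth limits what can be said of the 23 members not tested.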
